A study of Drosophila melanogaster with 14 samples.

Results

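The antimicrobial peptide genes of Drosophila were examined in whole flies that carried or lacked sesB1, a point mutation in the gene for the main adenine nucleotide translocase of the adult fly, which exchanges ATP and ADP across the inner mitochondrial membrane. The members were chosen by name, not by their values, as every probeset annotated with AttC, AttD, CecC, DptA, DptB, Def, Dro, Drs or Mtk alone. Of these 9 genes, 5 had a probeset of their own, namely Def, Mtk, DptB, AttD and Drs. Each had 1 probeset, so that 5 of 18769 probesets, and 5 of the 11981 genes with a probeset of their own, are described. AttC, CecC, DptA and Dro were not analysed here.

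Antimicrobial peptides are short secreted proteins that the fat body, the insect counterpart of liver and adipose tissue, releases into the hemolymph after infection. Their genes are switched on by a pair of NF-kappaB pathways. The Imd pathway senses bacterial peptidoglycan through receptors of the PGRP family and acts through Relish, and the Toll pathway is opened by a cascade of serine proteases that cleave the ligand Spätzle and acts through Dif and Dorsal. Diptericins and attacins, which act on Gram-negative bacteria, are typical targets of Imd, the antifungal drosomycin is the typical target of Toll, and metchnikowin and defensin respond to both. Several of these genes are also transcribed without infection in epithelia such as the gut and the reproductive tract, where drosomycin is found in the sperm storage organs of females.

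The 14 arrays held RNA of 4 groups, with 3 arrays of wild-type females, 4 of sesB1 females, 3 of wild-type males and 4 of sesB1 males. The sesB1 flies are described as F1 progeny of homozygous Canton S mutant mothers and Oregon R mutant fathers. Each stock had been backcrossed for more than 10 generations, and the wild-type flies were F1 progeny of the same strains without the mutation. The paper reports that sesB1 females were essentially sterile, and it does not state how homozygous mothers gave these flies. The labels name no infection and no transgene. Virgin females and males were kept apart at 25 degrees. Their age was 2 days by the sample labels and 1 day by the text of the series. RNA came from batches of whole flies, so that an array averages over all tissues of several flies, and a larger number of cells of a type cannot be told apart from more RNA per cell. The labels call the arrays of a group biological replicates. The p-values measure the spread between such batches.

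The values were log2 signals that had been centred on each probeset's own median over the 14 arrays. A value of 1 is thus a signal 2-fold above that median, and the values show how a gene differed between arrays but not how strongly it was expressed, so that levels were not compared between genes. A difference between groups was tested with limma over all 18769 probesets and called at a Benjamini-Hochberg adjusted p under 0.05, within each sex for genotype and over all 14 arrays for the interaction of sex and genotype and for females against males.

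The labelled sexes were borne out by their markers, since all 9 measured ovary and eggshell genes were higher in females and all 10 testis and accessory gland genes higher in males, in both genotypes. Some arrays stood apart. The mean centred log2 value of the ovary list was -1.29 in wild-type male replicate 2 and -3.37 in sesB1 male replicate 4, against -4.86 to -4.60 in the other 5 male arrays. The mean of the testis list was -2.86 and -1.86 in sesB1 female replicates 2 and 4, against -4.22 to -4.08 in the other 5 female arrays. The calls were therefore repeated without these 4 arrays. Correlations between arrays of 1 group over all probesets ranged from 0.855 to 0.982.

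In females, sesB1 flies had more Def and Mtk transcript than wild-type flies. Def, which encodes a defensin active against Gram-positive bacteria, was 2.68-fold higher and Mtk, which encodes the antibacterial and antifungal peptide metchnikowin, 4.13-fold higher. DptB, Drs and AttD did not pass the test. Hence 2 of 5 members were called higher and 0 of 5 lower by limma (3 of 5, all higher, had an unadjusted p under 0.05), where 13.4% of all probesets were called higher and 18.9% lower. The median log2 difference of the 5 genes was 0.88, beside 0.01 over all probesets.

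**Figure D1:**
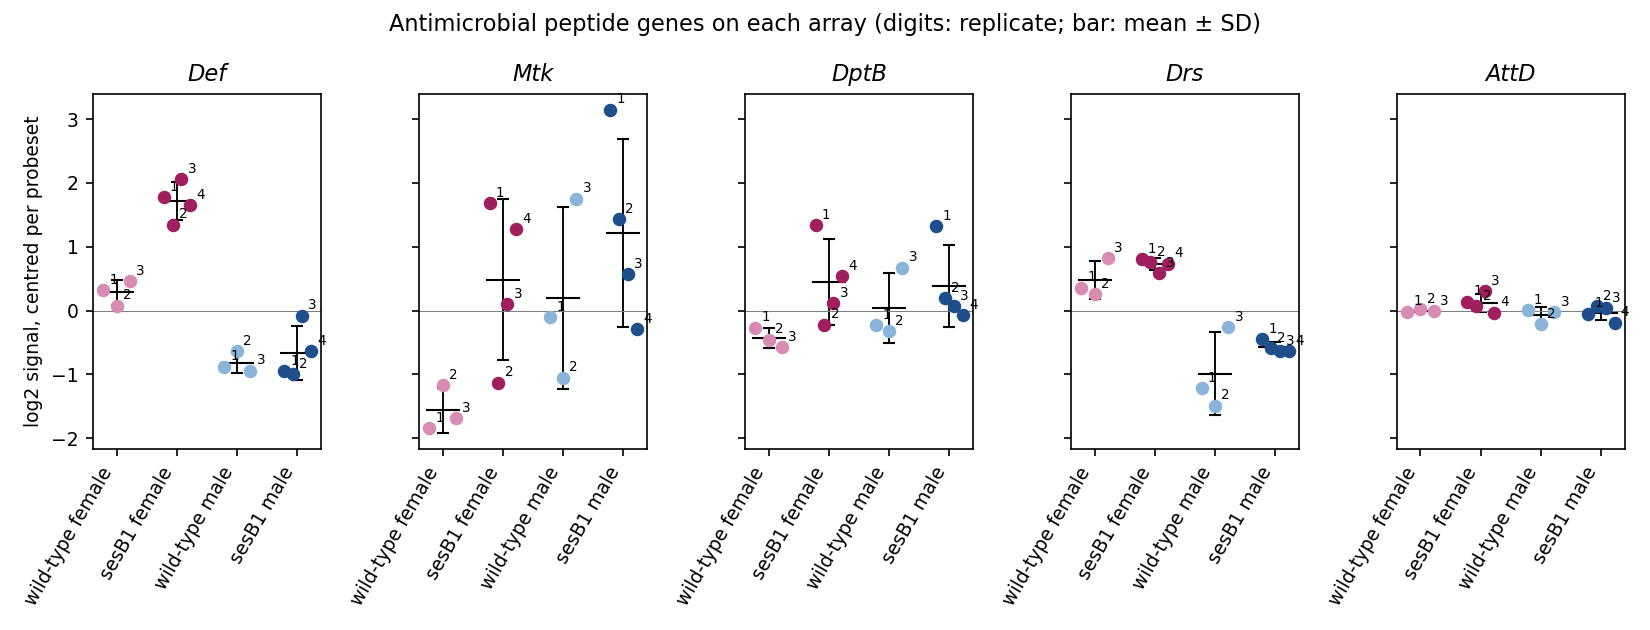
Centred log2 signal of each antimicrobial peptide gene (vertical axis) in the 4 groups (horizontal axis). Points are single arrays with their replicate number and bars show the mean ± SD, with n = 3 for wild type and n = 4 for sesB1 in each sex. The 4 sesB1 female arrays of Def lie between 1.35 and 2.06, above all others, whereas Mtk spreads from -0.29 to 3.15 among sesB1 males.

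Def read 0.33, 0.08 and 0.46 in the 3 wild-type female arrays. In the 4 sesB1 female arrays it read 1.78, 1.35, 2.06 and 1.66. Every mutant array lay above every wild-type array, with a clear gap between the groups. The log2 difference was 1.42 ± 0.16 (SE, adjusted p = 0.000293). It was called in each of 9 other ways of processing the arrays and with each of the 7 arrays left out in turn. It was not called when the methods' t-test was corrected by Bonferroni over all probesets. That correction called 0 of 5 members, and 29 higher and 12 lower of all 18769 probesets in females. It was larger, 2.23, after quantile normalization.

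Mtk read -1.84, -1.17 and -1.68 in wild-type females. In sesB1 females it read 1.68, -1.13, 0.11 and 1.27. The wild-type arrays lay together, and the mutant arrays lay apart from each other, with replicate 2 barely above the highest wild-type array. The test gave a log2 difference of 2.05 ± 0.58 (SE, adjusted p = 0.0236). This call was less firm than that of Def and was kept in 4 of the 9 other ways of processing. The adjusted p was 0.134 after quantile normalization, 0.0533 with the replicate number as a block (difference 1.78), 0.0643 with a trended robust prior, 0.121 in the methods' t-test and 0.0595 when all 14 arrays were fitted jointly. It was 0.0862 without wild-type female replicate 1 and 0.0749 without wild-type female replicate 3.

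DptB encodes diptericin B, a peptide directed at Gram-negative bacteria and a standard readout of Imd activity. It read -0.27, -0.45 and -0.57 in wild-type females, and 1.34, -0.22, 0.12 and 0.54 in sesB1 females. The groups did not overlap, but the lowest mutant array, replicate 2, was next to the highest wild-type array. Its log2 difference of 0.88 ± 0.31 (SE) missed the threshold (adjusted p = 0.0605). It passed without sesB1 female replicate 2 (1.10, adjusted p = 0.0195), without both female arrays that stood apart (1.16, adjusted p = 0.0177) and with the replicate number as a block (0.84, adjusted p = 0.038). It was smaller, and not called, without sesB1 female replicate 1 (0.58, adjusted p = 0.0523) and with weights on the arrays (0.61, adjusted p = 0.130).

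Drs, which encodes drosomycin, read 0.36, 0.25 and 0.82 in wild-type females. In sesB1 females it read 0.81, 0.76, 0.59 and 0.73. The mutant arrays lay closer together than the wild-type arrays, and wild-type replicate 3 was the highest of all 7. The log2 difference of 0.25 ± 0.14 (SE) did not pass (adjusted p = 0.224). Without wild-type female replicate 3 it was 0.42 (adjusted p = 0.0141), with weights on the arrays 0.35 (adjusted p = 0.0188), and after quantile normalization 0.77 (adjusted p = 0.0105). Without wild-type female replicate 2 it was 0.13 (adjusted p = 0.566).

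AttD, a member of the attacin family, hardly varied. It read -0.02, 0.02 and -0.01 in wild-type females and 0.14, 0.07, 0.30 and -0.03 in sesB1 females. The groups overlapped, and the log2 difference was 0.12 ± 0.09 (SE, adjusted p = 0.388).

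In males, none of the 5 genes passed the test in either direction, where 11.1% of all probesets were called higher and 10.8% lower. By limma, 0 of 5 also had an unadjusted p under 0.05, and the methods' t-test called 0 of 5. Each of the 5 log2 differences was above 0, with a median of 0.34 beside -0.01 over all probesets, but none exceeded the spread between arrays by the test.

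Def read -0.88, -0.64 and -0.94 in wild-type males and -0.95, -0.996, -0.08 and -0.64 in sesB1 males. Replicate 3 of sesB1 lay well above the wild-type arrays, replicate 4 was level with the highest of them and the other two lay below all 3. The log2 difference was 0.15 ± 0.20 (SE, adjusted p = 0.673), and it was -0.04 without that replicate.

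Mtk varied most among males. It read -0.11, -1.05 and 1.75 in wild-type males, and 3.15, 1.44, 0.57 and -0.29 in sesB1 males. The groups overlapped over most of their range, and replicates of 1 group differed more from each other than the group means did. Their means differed by 1.02 ± 0.79 on the log2 scale (SE, adjusted p = 0.447). The difference was 0.37 without sesB1 male replicate 1, 0.39 without wild-type male replicate 2, 1.80 without wild-type male replicate 3 and 1.61 after quantile normalization, and none of these passed.

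DptB read -0.22, -0.32 and 0.67 in wild-type males and 1.33, 0.20, 0.07 and -0.07 in sesB1 males. A single array in each group, wild-type male replicate 3 and sesB1 male replicate 1, stood above the rest, the same arrays that were highest for Mtk. Mutant and wild-type means differed by 0.34 ± 0.33 on the log2 scale (SE, adjusted p = 0.570). Single arrays moved the difference from 0.02 without sesB1 male replicate 1, 0.16 without wild-type male replicate 2 and 0.21 without wild-type male replicate 1 to 0.65 without wild-type male replicate 3, and none of these passed.

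Drs read -1.22, -1.49 and -0.25 in wild-type males, and -0.44, -0.59, -0.63 and -0.63 in sesB1 males. Wild-type male replicate 3 was again the array apart, above all mutant arrays, while the other two wild-type arrays were below them. For Drs the difference of the means was 0.41 ± 0.23 (SE, adjusted p = 0.275). Without wild-type male replicate 3 it was 0.78 (adjusted p = 0.00086), the only call of a member that leaving out 1 array made in males. It was 0.16 (adjusted p = 0.676) without wild-type male replicate 2, 0.18 (adjusted p = 0.674) without both male arrays that stood apart and 0.82 (adjusted p = 0.327) after quantile normalization.

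AttD read 0.01, -0.21 and -0.02 in wild-type males and -0.05, 0.07, 0.04 and -0.19 in sesB1 males. The groups overlapped, with a log2 difference of 0.04 ± 0.09 (SE, adjusted p = 0.820).

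A difference that was called in one sex only is not thereby shown to differ between the sexes, so the interaction of sex and genotype was tested. Def was the 1 member of 5 called with a more positive difference in females, and 0 of 5 were called with a more negative one. Of all probesets, 11.6% and 16% were called in these directions. For Def the log2 difference in females exceeded that in males by 1.27 ± 0.28 (SE, adjusted p = 0.00409). This call was kept in 8 of 8 other ways of processing and with each of the 14 arrays left out, but not under the Bonferroni correction, and the value was 2.19 after quantile normalization.

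The other 4 interactions were smaller than their errors allowed to be called. That of Mtk was 1.03 ± 1.13 (SE, adjusted p = 0.579), and that of DptB 0.54 ± 0.52 (adjusted p = 0.517). Those of Drs and AttD were -0.17 ± 0.30 (adjusted p = 0.762) and 0.08 ± 0.13 (adjusted p = 0.714). The effect of sesB1 on Mtk was thus called in females but not in males, and the difference between the sexes was not resolved by 14 arrays.

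**Figure D2:**
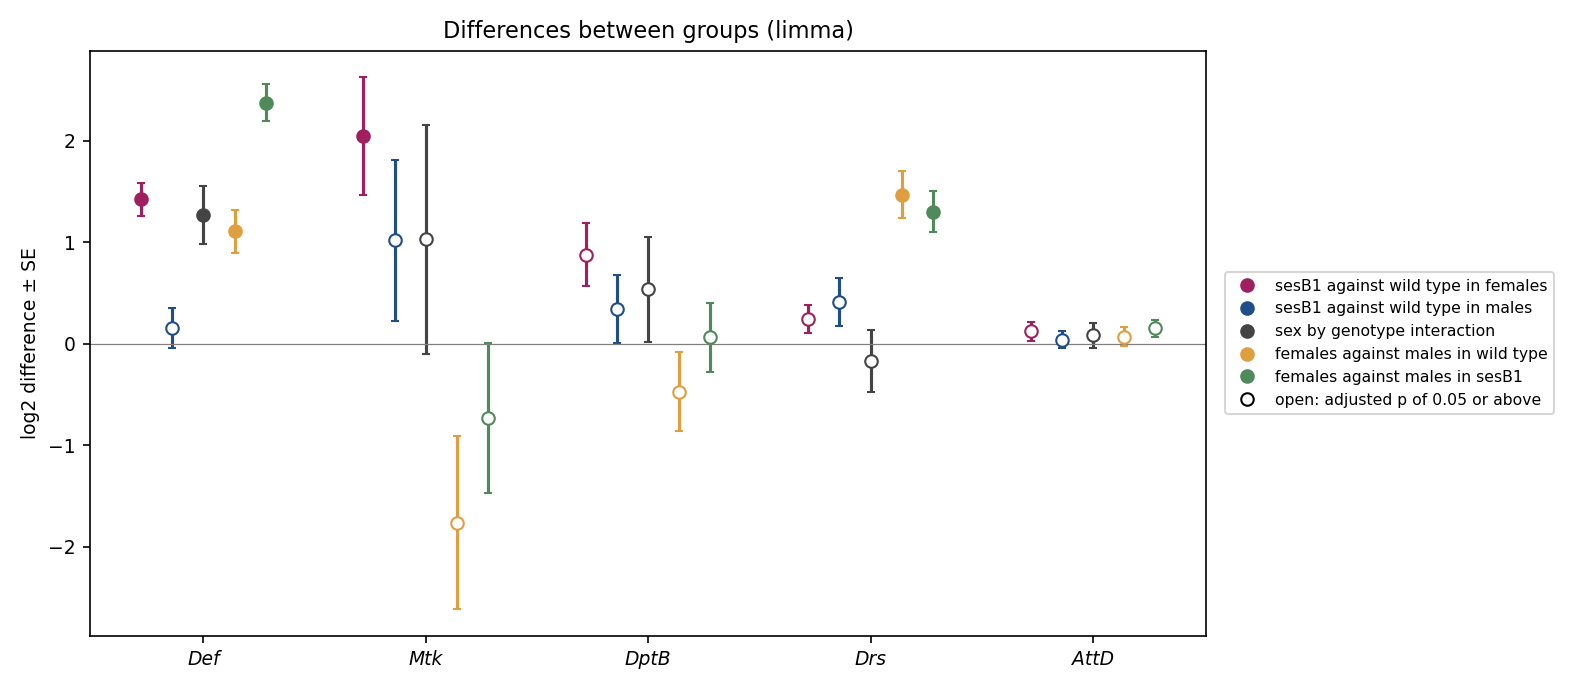
Log2 difference ± SE (vertical axis) of each antimicrobial peptide gene (horizontal axis) in 5 comparisons, with filled symbols for an adjusted p under 0.05. Def is called in 4 of the 5 comparisons and Drs in both comparisons of females with males, while no comparison of DptB or AttD is called.

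Females and males of the same genotype differed in Def and Drs. In wild type 2 of 5 members were higher in females and 0 of 5 lower, where 39.4% of all probesets were called higher and 24.7% lower. In sesB1 the counts were again 2 and 0 of 5, beside 43.8% and 21.3%. The centring of the arrays bears on such comparisons. The median log2 difference between females and males over all probesets was 0.15 in wild type and 0.17 in sesB1, and it was 0.01 and 0.02 once each array was centred on its own median. Of all calls, 61.4% were higher in females in wild type and 67.3% in sesB1. With each array centred on its median these shares were 50.6% and 51.7%, and after quantile normalization 50.3% and 50.8%.

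Drs was 2.76-fold higher in females than in males in wild type (log2 difference 1.47 ± 0.23 SE, adjusted p = 3.87e-05). In sesB1 it was 2.46-fold higher (1.30 ± 0.20 SE, adjusted p = 3.58e-05). Male and female arrays did not overlap in either genotype. The group means were 0.72 ± 0.10 in sesB1 females (SD, n = 4), 0.48 ± 0.30 in wild-type females (SD, n = 3), -0.58 ± 0.09 in sesB1 males (SD, n = 4) and -0.99 ± 0.65 in wild-type males (SD, n = 3). In that order, the 2 female groups did not differ by the test, nor did the 2 male groups.

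The wild-type flies of each sex differed in Def by 2.15-fold, with more in females (log2 difference 1.11 ± 0.21 SE, adjusted p = 0.000299). In sesB1 flies the difference ran the same way and was 5.19-fold (2.38 ± 0.19 SE, adjusted p = 1.62e-08). The group means fell in the order sesB1 females, 1.71 ± 0.30 (SD, n = 4), wild-type females, 0.29 ± 0.19 (SD, n = 3), sesB1 males, -0.66 ± 0.42 (SD, n = 4), and wild-type males, -0.82 ± 0.16 (SD, n = 3). The 2 male groups did not differ by the test. Wild-type females and sesB1 males, neighbours in this order, were not compared by a test, and their arrays met without overlap at 0.08 and -0.08. These calls of Def and Drs were kept in 9 of 9 other ways of processing and with each array left out. Under the Bonferroni correction only that of Drs in sesB1 was kept (Bonferroni-adjusted p = 0.0196).

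Mtk ran the other way. Its wild-type female arrays, from -1.84 to -1.17, all lay below its wild-type male arrays, from -1.05 to 1.75. The log2 difference was -1.76 ± 0.85 (SE, adjusted p = 0.0836), and it passed without wild-type male replicate 2 (-2.39, adjusted p = 0.0361), without the arrays that stood apart (adjusted p = 0.0102) and when wild-type arrays were fitted alone (adjusted p = 0.0258). In sesB1 the difference was -0.73 ± 0.74 (SE, adjusted p = 0.386). For DptB the differences were -0.47 ± 0.39 (SE, adjusted p = 0.300) in wild type and 0.06 ± 0.34 (adjusted p = 0.872) in sesB1. For AttD they were 0.07 ± 0.10 (SE, adjusted p = 0.535) and 0.15 ± 0.08 (adjusted p = 0.121), and both turned below 0 under either other centring.

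The members differed in how far arrays of 1 group lay apart. The pooled SD within groups was 1.25 log2 units for Mtk, and 25 of 18739 probesets had a larger one. It was 0.57 for DptB, exceeded by 174 probesets, 0.33 for Drs, exceeded by 510, and 0.30 for Def, exceeded by 643. For AttD it was 0.11, below the median of 0.134 over all probesets. Thus 4 of the 5 peptide genes varied more between batches of like flies than at least 96.6% of probesets.

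**Figure D3:**
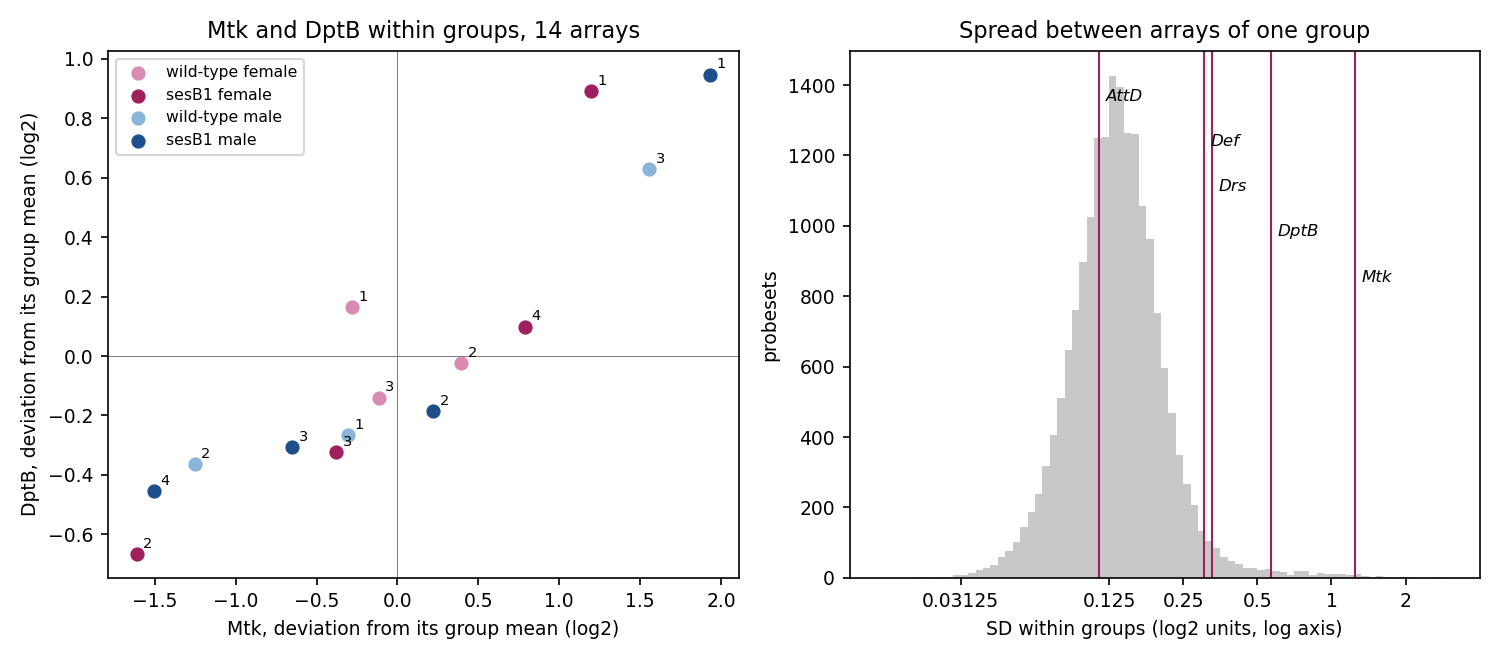
Left, deviation of DptB (vertical axis) against that of Mtk (horizontal axis) from their group means, in log2 units, for each of 14 arrays marked by replicate number. Right, number of probesets (vertical axis) by pooled SD within groups (horizontal log axis), with the 5 peptide genes as lines. Mtk and DptB move together, with sesB1 male 1, wild-type male 3 and sesB1 female 1 highest for both, and Mtk lies at the far right of the distribution with an SD of 1.25.

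Much of this spread was shared by Mtk and DptB. Over the 14 arrays, their deviations from the group means correlated with a Pearson r of 0.91 and a Spearman rho of 0.94. Without the 2 arrays farthest from the median of DptB, sesB1 male replicate 1 and sesB1 female replicate 1, r was 0.90. The points share their arrays and their group means. Ranked by this correlation with Mtk, DptB was number 2 of 18738 probesets. The arrays with the highest values of both genes in their groups were sesB1 female replicate 1, wild-type male replicate 3 and sesB1 male replicate 1. The arrays with the lowest values of both were sesB1 female replicate 2, wild-type male replicate 2 and sesB1 male replicate 4, which are 3 of the 4 arrays in which markers of the other sex were raised. The part of such transcripts in the values was not tested.

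The other members followed Mtk less closely or not at all. The deviations of Drs correlated with those of Mtk with an r of 0.54. This was 0.24 without the 2 arrays farthest from the median of Drs, wild-type male replicates 2 and 3. With those of DptB the r of Drs was 0.49. It was 0.59 without the 2 arrays farthest from the median of DptB, sesB1 male replicate 1 and sesB1 female replicate 1. Def went with neither, with an r of -0.28 to Mtk and -0.20 to DptB. AttD had an r of 0.24 to Mtk and 0.08 to DptB. The array that was highest for Mtk, sesB1 male 1, was among the lowest for Def.

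Among 13614 other probesets with 1 gene symbol, the 8 whose deviations were most like the mean deviation of the 5 members were beat-IIIc (Pearson r 0.93), CG15144 (0.90), SA2 (0.89), CG8389 (0.89), CR11023 (0.88), CG30036 (0.87), lncRNA:CR44217 (0.85) and CG10600 (0.84), over 14 arrays. Mtk, with the largest spread, weighs most in that mean. The 8 r are the highest of 13614, each over 14 arrays, and no test allowed for that search. Without sesB1 male 1 and wild-type male 3, the arrays farthest out, these r lay between 0.71 and 0.89. No gene of the lists below was among them. Genes of those lists whose deviations correlated with Mtk above 0.5, looked up after the values were known, were PGRP-SB1 (r 0.70) and scny (0.56) of 25 Imd genes, Tl (0.63) and Gprk2 (0.55) of 22 Toll genes, Fbp2 (0.58) and Fbp1 (0.53) of 3 larval fat body genes, and 0 of 20 other peptide genes, where 4.58% of all probesets exceeded 0.5.

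The remaining peptide genes and the genes that control them were followed in lists drawn up by name. Of 37 other antimicrobial and immune-induced peptides, 20 were measured. In sesB1 females, where 13.4% of all probesets were called higher and 18.9% lower, 5 were called higher, namely Drsl5, BomS5, BomS6, BomT3 and IM33, and 1 lower, Drsl4. In sesB1 males, 2 were higher, BomT2 and BomS6, and 1 lower, again Drsl4, beside 11.1% and 10.8% of all probesets. The medians of their log2 differences were 0.08 in females and 0.11 in males. After quantile normalization the counts in females were 1 higher and 2 lower. They were also unsteady to single arrays, with 2 higher in females without wild-type female replicate 1 and 3 without any 1 of sesB1 female replicates 1, 2 and 3, and with 4 higher in males without wild-type male replicate 3 and 3 lower without wild-type male replicate 2. BomS6, BomT3 and IM33 were named after their values were seen.

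Drsl5, which encodes a drosomycin-like peptide, differed by 0.91 ± 0.12 on the log2 scale in females (SE, adjusted p = 0.000506) and by 0.44 in males (adjusted p = 0.0760). The male difference passed with a trended robust prior (adjusted p = 0.0469), without wild-type male replicate 2 (0.62, adjusted p = 0.0101) and without both male arrays that stood apart (0.68, adjusted p = 0.0099). Drsl4, another drosomycin-like gene, fell by 0.97 (adjusted p = 0.000944) in females and by 1.47 (adjusted p = 1.18e-05) in males, the opposite direction to Drsl5. BomS5 and BomT2 encode Bomanins, short secreted peptides that are effectors of the Toll pathway. BomS5 was higher by 0.84 in females (adjusted p = 0.0107), a call lost after quantile normalization (0.45, adjusted p = 0.212), in the methods' t-test (adjusted p = 0.0687) and without wild-type female replicate 1 (0.71, adjusted p = 0.0527). BomT2 was higher by 0.96 in males (adjusted p = 5.61e-06) and differed by 0.30 in females (adjusted p = 0.152), a difference that passed with weights on the arrays (0.36, adjusted p = 0.0373) and without both female arrays that stood apart (0.46, adjusted p = 0.0455). The difference was less positive in females by the interaction (-0.66, adjusted p = 0.00639), though not without the 4 arrays that stood apart (-0.48, adjusted p = 0.0639).

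Of the Imd pathway, 25 of 30 listed genes were measured. In sesB1 females 7 were called higher and 9 lower (13.4% and 18.9% of all probesets), and in sesB1 males 6 higher and 0 lower (11.1% and 10.8%). The medians of their log2 differences were -0.13 and 0.03. The interaction was called for 13 genes, 3 with a more positive difference in females, PGRP-SB1, PGRP-SC2 and Dredd, and 10 with a more negative one, beside 11.6% and 16% of all probesets. The count of 3 was 5 without sesB1 female replicate 4. After quantile normalization the counts in females were 3 higher and 3 lower, and for the interaction 1 and 2. The 9 genes lower in females, named after their values were seen, were PGRP-LE, Fadd, IKKbeta, key, casp, Uev1A, POSH, Charon and akirin. Of these, Fadd, the adaptor between Imd and the caspase Dredd, differed most, by -0.98 (adjusted p = 0.000943), and IKKbeta, a kinase that activates Relish, by -0.71 (adjusted p = 0.00148). PGRP-SB1 and PGRP-SC2, secreted amidases that cleave peptidoglycan, were higher by 2.18 and 1.62 in females (adjusted p = 0.000344 and 4.67e-05) and by 0.92 and 0.58 in males (adjusted p = 0.00303 and 0.00188). PGRP-LB, a further amidase that scavenges peptidoglycan, was higher by 1.00 (adjusted p = 0.00109) and 0.49 (adjusted p = 0.0101) in the respective sexes.

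pirk, an intracellular inhibitor that takes the receptor PGRP-LC from the cell surface, was higher by 0.98 (adjusted p = 0.0152) in females and by 0.43 (adjusted p = 0.0495) in males. The call in females was lost without wild-type female replicate 2 (0.86, adjusted p = 0.0603), and that in males without any 1 of wild-type male replicates 1 and 2 and sesB1 male replicates 1, 3 and 4, and in 6 other ways of processing, with weights on the arrays, median centring, quantile normalization, the joint fit, the methods' t-test and without both arrays that stood apart (adjusted p between 0.0649 and 0.24). After quantile normalization the calls of PGRP-LB and pirk in females were lost (adjusted p = 0.0552 and 0.113). The methods' t-test lost the call of pirk in females (adjusted p = 0.0886). In males it lost those of PGRP-LB (adjusted p = 0.0678) and PGRP-SB1 (adjusted p = 0.0501). The differences of PGRP-SB1 and PGRP-SC2 were more positive in females (interaction 1.26, adjusted p = 0.0130, and 1.05, adjusted p = 0.000406), but not after quantile normalization (adjusted p = 0.407 and 0.197). Rel, which encodes the transcription factor Relish itself, differed by -0.13 in females and 0.02 in males and was not called (adjusted p = 0.272 and 0.894).

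Of the Toll pathway, 22 of 27 listed genes were measured. In sesB1 females 11 were called higher and 4 lower (13.4% and 18.9% of all probesets), and in sesB1 males 13 higher and 1 lower (11.1% and 10.8%). The medians of their log2 differences were 0.31 and 0.33. After quantile normalization 4 were higher and 0 lower in females and 12 and 1 in males. SPE, the protease that cleaves Spätzle, was higher by 1.30 (adjusted p = 0.000198) in females and 0.59 (adjusted p = 0.00141) in males. Hayan, a protease of the same cascade, was higher by 1.14 (adjusted p = 0.000242) in females and 0.92 (adjusted p = 4.12e-05) in males.

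GNBP3, which recognises fungal glucans, was higher by 0.71 (adjusted p = 0.00152) in females and 0.86 (adjusted p = 0.000208) in males. Spn28Dc, a serpin, which is an inhibitor of serine proteases, was higher by 0.81 (adjusted p = 0.00126) in females and 0.39 (adjusted p = 0.0104) in males. The male call of Spn28Dc was lost without both male arrays that stood apart (0.31, adjusted p = 0.0852). The difference of SPE was more positive in females (interaction 0.71, adjusted p = 0.00752), but not after quantile normalization (0.17, adjusted p = 0.606). The 4 genes that were lower in females were spz, pll, tub and Deaf1, named after their values were seen. Of these spz, which encodes Spätzle, differed by -0.73 in females and 0.54 in males, and Deaf1 was the 1 gene called lower in males, a count of 0 without any 1 of wild-type male replicates 2 and 3 and sesB1 male replicates 1 and 2. Dif, a transcription factor of the pathway, differed by -0.09 in females and 0.10 in males and was not called (adjusted p = 0.521 and 0.537).

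**Figure D4:**
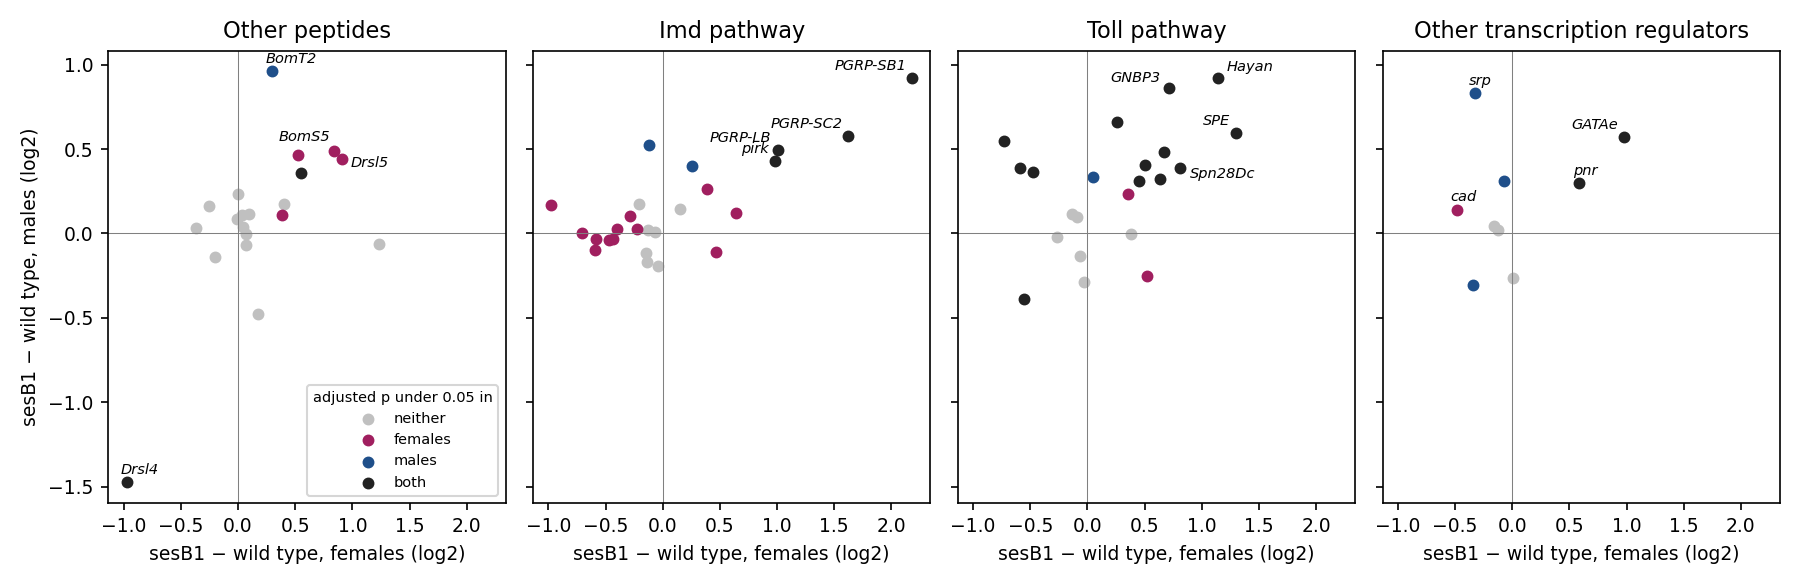
Log2 difference between sesB1 and wild type in males (vertical axis) against that in females (horizontal axis) for the measured genes of 4 lists, 20 other peptides, 25 Imd genes, 22 Toll genes and 9 other transcription regulators, coloured by the sex in which the adjusted p was under 0.05. PGRP-SB1, at 2.18 in females and 0.92 in males, lies farthest to the upper right, and Drsl4 is the only other peptide called lower in both sexes.

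Of 11 transcription regulators of peptide genes outside both pathways, 9 were measured. In sesB1 females 2 were called higher and 1 lower (13.4% and 18.9% of all probesets), and in sesB1 males 4 and 1 (11.1% and 10.8%). GATAe, the GATA factor of the midgut, was higher by 0.98 (adjusted p = 0.00613) in females and 0.57 (adjusted p = 0.00193) in males. Its call in females was lost after quantile normalization (adjusted p = 0.129) and in the methods' t-test (adjusted p = 0.0508). pnr, a GATA factor of the heart and dorsal body wall, was higher by 0.58 (adjusted p = 0.00302) in females and 0.30 (adjusted p = 0.0353) in males, the latter a call that 4 single arrays decided, being lost without wild-type male replicates 1 or 3 or sesB1 male replicates 1 or 4. It was also lost in 7 other ways of processing, with the replicate number as a block (0.26, adjusted p = 0.122), weights on the arrays, median centring, quantile normalization, the joint fit, the methods' t-test and without both arrays that stood apart (adjusted p between 0.0546 and 0.122). srp, the GATA factor of the fat body and hemocytes, was higher by 0.83 in males (adjusted p = 0.00296) and differed by -0.33 in females (adjusted p = 0.163), with a called interaction (-1.16, adjusted p = 0.00246). The female difference was called with the replicate number as a block (-0.44, adjusted p = 0.0165), with weights on the arrays (-0.50, adjusted p = 0.0146) and without sesB1 female replicate 4 (-0.44, adjusted p = 0.0323). cad, a repressor of peptide genes in the gut, was lower by 0.48 on the log2 scale (adjusted p = 0.0250) in females and differed by 0.14 in males (adjusted p = 0.406). The female call of cad was lost in the methods' t-test (adjusted p = 0.0907), and the difference was 0.0458 after quantile normalization. The female call of cad was also lost without any 1 of wild-type female replicates 1 and 3 and sesB1 female replicates 1, 2 and 3 (adjusted p between 0.0508 and 0.0987). Its interaction (-0.62, adjusted p = 0.0191) was lost after quantile normalization (adjusted p = 0.969), and without wild-type male replicate 1 (adjusted p = 0.0559) or wild-type female replicate 3 (adjusted p = 0.0536).

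Markers of hemocytes, larval fat body and midgut moved with genotype as well. Of 14 hemocyte markers, 8 were called higher and 0 lower in sesB1 females, where 13.4% and 18.9% of all probesets were called in these directions. In sesB1 males 5 were higher and 2 lower, beside 11.1% and 10.8% of all probesets. The mean of the list ranged from -0.51 to -0.39 in wild-type females, 0.12 to 0.56 in sesB1 females, -0.46 to -0.40 in wild-type males and -0.09 to 0.16 in sesB1 males. Of 3 larval fat body and serum markers, 3 were called higher in each sex, and the list mean ranged from -6.04 to -5.68 in wild-type females, 0.53 to 0.86 in sesB1 females, -5.52 to -4.42 in wild-type males and -0.07 to 0.72 in sesB1 males. Cells of the larval fat body are known to persist for a time in young adults.

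The counts of the next 4 lists stand beside 13.4% of all probesets called higher and 18.9% lower in sesB1 females, and 11.1% and 10.8% in sesB1 males. Of 10 midgut markers, 8 were higher and 0 lower in sesB1 females and 5 higher and 2 lower in sesB1 males. The list mean ranged from -0.67 to -0.64 in wild-type females, 0.14 to 0.82 in sesB1 females, -0.41 to -0.29 in wild-type males and -0.10 to 0.07 in sesB1 males. Of 6 adult fat body markers, 2 were higher and 0 lower in sesB1 females and 0 higher and 1 lower in sesB1 males. The mean of this list was 0.51 to 0.71 in wild-type females and 0.99 to 1.11 in sesB1 females. In males it was -3.78 to -0.58 in wild type and -3.97 to -1.52 in sesB1, with the arrays that stood apart at the upper ends. Of 9 ovary and eggshell markers, 2 were higher and 4 lower in sesB1 females (median log2 difference -0.53) and 0 higher and 1 lower in sesB1 males (-0.94). The male median includes wild-type male replicate 2, which stood apart. The ovary list mean was -1.29 in that array, -4.61 and -4.60 in the other wild-type males and -4.86 to -3.37 in sesB1 males. Of 10 testis and accessory gland markers, 1 was higher and 0 lower in sesB1 females (median 1.28) and 0 higher and 7 lower in sesB1 males (-0.47). The female median includes sesB1 female replicates 2 and 4, which stood apart with testis list means of -2.86 and -1.86. Replicates 1 and 3, at -4.08 and -4.11, lay near the wild-type females, at -4.22 to -4.17. The part of these tissues in the values of Def, Mtk and the listed genes was not tested.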

How the data were processed

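Total RNA of whole flies was hybridised to 14 Affymetrix Drosophila arrays. The authors normalized the raw data in Genespring GX. Its version, the summarisation and any filter are not stated in the methods or labels. What was deposited is a log2 signal per probeset, with a median of 0 across arrays in all 18922 probesets that had no missing value. Depth and brightness are not known from such values, and the number of arrays limits the precision. Of the values, 30 were spreadsheet date serials (12785 to 41716), none in a member's probeset, and were set to missing. Array medians differed by up to 0.127 within females, 0.0852 within males and 0.265 overall.

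Of 18952 probesets, 183 controls were left out and 18769 tested. The platform annotation gave 1 symbol for 13646, several for 402 and none for 4721, and 13543 matched a current gene. Each sex was fitted with limma 3.58.1 (lmFit and eBayes, R 4.3.3), and the interaction and the sexes in a fit of all 14 arrays. Adjusted p-values are Benjamini-Hochberg values over all 18769 probesets. No set test was run. Other steps used scipy 1.17.1, numpy 2.4.6, pandas 2.3.3 and matplotlib 3.10.9 under Python 3.11.15. The fits were tested on simulated data with independent noise, the same spread in every group and no arrays that stood apart. Such data cannot show how the fits behave where spreads are unequal or arrays stand apart.

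The members and lists were chosen with earlier results of these data known. Named were all members, up to 4 genes of each pathway list with the largest difference among those called, and the 8 probesets most like the members' mean. A gene with several probesets took the first by identifier. Alternatives tried were array weights, a trended robust prior, a block for the replicate number, median centring of arrays, quantile normalization, the methods' t-test (equal variances, with Benjamini-Hochberg adjustment in place of the Bonferroni correction the methods name, and, added after seeing the data, with Bonferroni over all probesets), a 2-fold threshold, probesets with 1 symbol only, leaving out the 4 arrays that stood apart, leaving out each array, and joint or separate fits. Same-numbered arrays showed no strong shared deviation (13 pairs, correlations of deviations from -0.20 to 0.14, 3 over 0.1). The main fits did not use the numbers as pairs, and such correlations cannot tell whether a weak pairing was present.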

Additional observations from a re-analysis of the deposited data

Results flagged for a closer look

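The sesB1 difference was not the same in females and males, by the interaction test in the joint fit of 14 arrays, for 23 genes, namely Def and 22 of the 76 measured genes of the 4 lists. Over all probesets, 11.6% were called with a more positive difference in females and 16% with a more negative one. Called genes were thus about as frequent in the lists as among all probesets, and their number marks no trait of these genes. The values below are log2 differences in females minus those in males, and a positive value means a more positive difference in females. Among peptides they were 1.27 for Def and -0.66 for BomT2. Among Imd genes they were positive for PGRP-SB1 (1.26), PGRP-SC2 (1.05) and Dredd (0.57). They were negative for Fadd (-1.15), IKKbeta (-0.71), imd (-0.64), akirin (-0.55), POSH (-0.50), Charon (-0.43), Uev1A (-0.42), casp (-0.40), key (-0.39) and Tab2 (-0.38). Among Toll genes they were 0.77 for dl and 0.71 for SPE, and -1.28 for spz, -0.97 for pll, -0.84 for tub and -0.40 for Spn27A. Of the other transcription regulators, srp had -1.16 and cad -0.62.

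Under quantile normalization 9 of the 23 were still called, namely Def (2.19), BomT2, imd, Fadd, Dredd, spz, pll, Spn27A and srp. Over all probesets, 3.9% were then called with a more positive difference in females and 5.6% with a more negative one. The called share of the list genes was again close to that of all probesets. No sample of a sesB1 group lay far from the others by Dixon's test in 10 groups of 4 arrays (5 genes, 2 sexes), and the wild-type groups of 3 were not tested.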

How the results depend on the processing

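Def kept its direction and its calls in females, for the interaction and between the sexes under every alternative tried, except the Bonferroni correction, and with each array left out. For the other results the cause of a change was not tested. The number of members called higher in females was 2, and it was 1 with the trended robust prior, in the methods' t-test and in the joint fit, 3 with array weights and 3 without the arrays that stood apart, and 1 to 3 with an array left out. Bonferroni correction of the methods' t-test, chosen after seeing the data, called 0 in females, 0 for the interaction (1 in the limma fit), 0 higher in females than in males in wild type (2) and 1, Drs, in sesB1 (2). Of all 18769 probesets it called 29 higher and 12 lower in sesB1 females, and 130 and 95 for the interaction. Between females and males it called 188 higher and 779 lower in wild type, and 1201 and 1404 in sesB1. In males the number of members called higher was 0, and 0 to 1 with an array left out. The number lower in females than in males in wild type was 0, and it was 1 without the arrays that stood apart, 1 in a separate fit and 0 to 1 with an array left out, each time Mtk. With the replicate number as a block (replicate block), the female difference of Mtk was 1.78 (adjusted p = 0.0533) and that of DptB 0.84 (adjusted p = 0.038), so that 2 members were called, but not the same 2. In that fit the fourth sesB1 array of a sex has no partner and adds nothing to the comparison within the sex. The replicate block changed no other call of a member.

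These differences changed sign. Quantile normalization gave 0.0458 for cad in females (-0.48 and called in the limma fit), -0.0877 and -0.51 for the interactions of BomS5 and Hayan (0.35 and 0.22), and -0.0721 and -0.0306 for AttD between the sexes in wild type and sesB1. Median centring gave -0.0692 and -0.00349 for AttD and -0.091 for DptB in sesB1, for which array weights gave -0.0381. The Drs interaction was 0.0394 without the arrays that stood apart. With an array left out, the ranges were -0.0291 to 0.0928 for AttD in males, -0.0409 to 0.265 for Def in males, -0.533 to 0.0834 for the Drs interaction and -0.233 to 0.379 for DptB between the sexes in sesB1. The interaction as a difference of separate fits is the same value and was not run.

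Centred values give no signal over background, so that a gene that differed little, such as AttD, cannot be told apart from a probeset without signal. Quantile normalization also moved the counts over all probesets, to 7.5% higher and 8.2% lower in females, 9.9% and 9.3% in males, and 3.9% and 5.6% for the interaction.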
